A study of Mus musculus with 22 samples.

Results

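Pectin was compared with cellulose in mice that were not in the PFOS groups, through the 4 Pectin and 4 Control libraries among the 22 intestinal RNA libraries of a feeding study. All groups were male wild-type C57BL/6 mice, an inbred laboratory strain, 7 weeks old at the start and kept for 7 weeks on an irradiated diet with 8% fibre by weight. Fat, protein and carbohydrate gave 35%, 20% and 45% of the dietary energy, and the fibre was cellulose in Control and pectin in Pectin. Comparison groups were Inulin (inulin fibre, n = 3), PFOS (cellulose with perfluorooctanesulfonic acid, a persistent industrial surfactant, in the drinking water at 3 μg per kg body weight per day, n = 4) and Pectin_PFOS (pectin with the same exposure, n = 4). A further group, Inulin_PFOS (inulin with the same exposure, n = 3), entered the fit of all 22 libraries but was not compared. One treatment entry shared by every sample mentions PFOS, so exposure was read from the group names in the sample titles. The labels number the samples of a group as biological replicates without saying whether each was a separate mouse, and they do not name the gut segment.

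Cellulose passes through the mouse gut largely unfermented, whereas pectin, a galacturonan of plant cell walls, is fermented by gut bacteria to short-chain fatty acids. The intestinal epithelium meets bacteria with mucus, secreted lectins, oxidants and immunoglobulin A (IgA), which plasma cells beneath the epithelium make and which epithelial cells carry into the lumen. Interferons, cytokines of antimicrobial defence, switch on a further set of genes in epithelial and immune cells.

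The 8 libraries held 17613322 to 20166477 counts, and 14346 to 14926 genes reached 10 counts in each. Levels are given as CPM, counts scaled to a common library total after trimmed-mean (TMM) normalization. Ileal genes were present, with Fabp6, the ileal bile acid binding protein, at 1428 to 2228 CPM in Control and 2811 to 4984 CPM in Pectin, while Gata4, a factor of the proximal small intestine, was at most 1.22 CPM in Control and ran from 0.443 to 17.7 CPM in Pectin. Over the 8 tested ileum markers, Fabp6 among them, the log2 fold change of Pectin over Control was positive in 4 and negative in 4. Their median was -0.002, and 42.2% of all genes tested were positive. Control 2, Control 4 and Pectin 4 stood apart. Control 2 had 12480 CPM summed over the smooth muscle markers, against 2863 to 6701 CPM in the other 7 libraries. It had 6.69 CPM summed over the follicular B cell markers, against 31.7 to 835 CPM in the others. Control 4 had 14.9% of its counts from mitochondrially encoded genes, against 3.74% to 7.36% in the other 7 libraries. Pectin 3 had 3201 CPM summed over the proximal small intestine markers, against 308 to 1881 CPM in the other 7. Its sum over the type I interferon-stimulated genes was 2333 CPM, against 801 to 1439 CPM in the others. Pectin 4 had 16880 CPM summed over the enterocyte markers, against 40300 to 68640 CPM in the other 7. These are whole-tissue libraries, in which fewer cells of a type and less RNA per cell cannot be told apart.

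With pectin, 162 genes were higher and 151 lower than with cellulose among the 15763 genes tested, which is 1.99% of them (1.03% higher and 0.958% lower; edgeR's quasi-likelihood test over all 22 libraries, Benjamini-Hochberg adjusted p under 0.05). The median log2 fold change was 1.33 among the higher genes and -1.03 among the lower genes, and 101 and 81 of them differed more than 2-fold. Over all genes tested the median was -0.08, with 6646 positive values (42.2%) and 9117 negative values. The counts of the gene lists below stand against these shares of all genes. The CPM of the 4 Pectin and the 4 Control libraries did not overlap for 281 of the 313 genes, against 1298 of all genes tested (8.23%); these were 143 higher and 138 lower genes, against 3.95% and 4.29% of all genes. Among genes with a mean of at least 1 CPM, Plet1, Ubd and Duoxa2 had the largest positive and Prkag3, Bmp1 and Vwa1 the largest negative fold changes chosen by the naming rule.

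The number of genes past the threshold depended on single libraries. Without Control 1, 2 or 3 it was 112, 137 or 199, without Pectin 1, 2, 3 or 4 it was 92, 83, 51 or 183, and without Control 4 it was 530. With the Pectin and Control libraries alone in the fit it was 48. The split of 162 higher and 151 lower genes was 51 and 75 when libraries were scaled by their totals alone, and 230 and 102 after a correction for GC content. For single genes the text gives the number of these 8 omissions of one library in which the gene still passed. Of the 65 genes named by the rule that passed, 17 did so in all 8, as did 5 of the 28 that were picked after their values were seen.

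**Figure D1:**
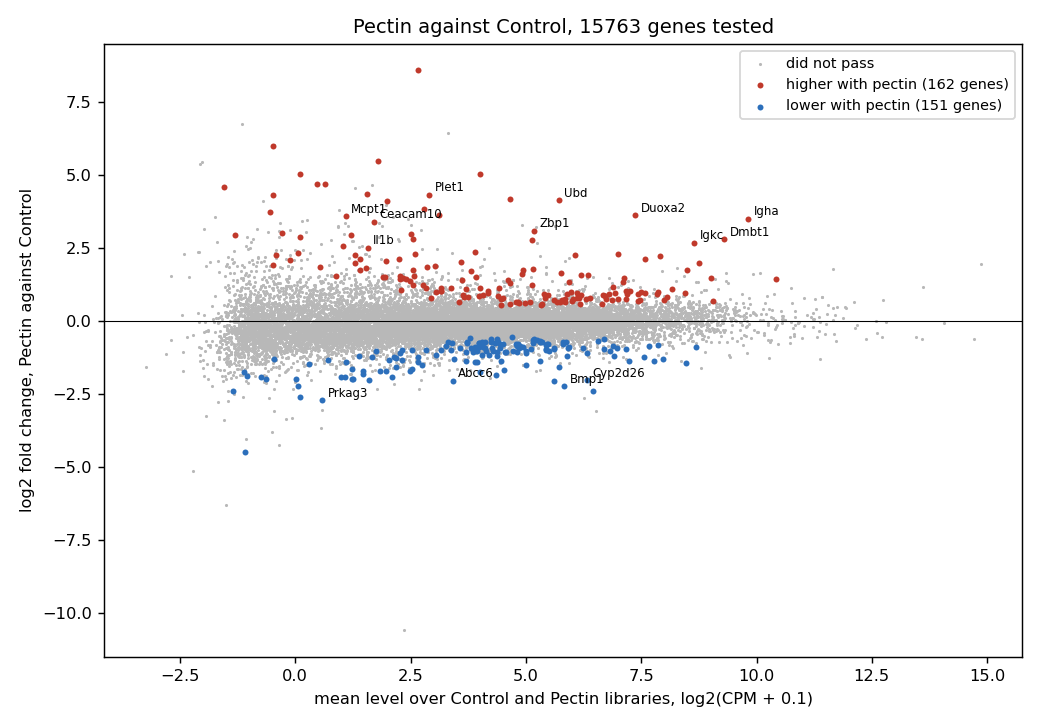
Log2 fold change of Pectin over Control (vertical axis) against the mean level of the 8 libraries, log2(CPM + 0.1) (horizontal axis) for the 15763 genes tested. The 162 higher and 151 lower genes are coloured and the others grey; names mark some of the genes described in the text, such as Igha and Duoxa2 among the higher and Bmp1 among the lower.

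Igha, Igkc and Ccl28, of the list of IgA production and transport, rose with pectin. Igha, the constant region of the IgA heavy chain (chromosome 12, 113254830 to 113260236, GRCm38), had 173, 121, 168 and 121 CPM in Control 1 to 4 and 1988, 817, 989 and 2854 CPM in Pectin 1 to 4 (log2 fold change 3.51 ± 0.58 SE, adjusted p = 0.00904). Igkc, the constant region of the kappa light chain, had 95.8, 49.02, 203 and 82.0 CPM in Control and 824, 418, 484 and 1047 CPM in Pectin (2.69 ± 0.57, adjusted p = 0.0266). In both genes each Pectin library lay above each Control library. Ccl28, an epithelial chemokine that draws IgA plasma cells to mucosal surfaces, rose from 9.72 to 22.5 CPM in Control to 25.6 to 46.8 CPM in Pectin (1.32 ± 0.34, adjusted p = 0.0488). Igha passed in all 8 omissions, Igkc in 5 (its adjusted p reached 0.0592 in the omissions of Control 1, Control 2 and Pectin 1) and Ccl28 in 1 (without Control 4; up to 0.123 in the others).

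Of the 22 tested genes of IgA production and transport, 19 had a positive log2 fold change, 3 rose and 0 fell, with a median of 1.21 against -0.08 over all genes. Pigr, the receptor that carries IgA across the epithelium, had 265 to 1063 CPM in Control and 1191 to 2427 CPM in Pectin and missed the threshold (1.65 ± 0.43, adjusted p = 0.051). Jchain, the joining chain of polymeric IgA, had 112, 167, 169 and 807 CPM in Control and 1549, 804, 684 and 911 CPM in Pectin (1.65 ± 0.71, adjusted p = 0.215), so that Control 4 overlapped the Pectin libraries. Among 110 immunoglobulin variable segments tested, 106 had a positive value, 10 rose and 0 fell. The one of largest fold, Ighv7-1, singled out after its values were seen, had at most 0.0554 CPM in any Control library and 6.89 to 15.5 CPM in the Pectin libraries. Reads from variable segments of near-identical sequence may have been divided among them in counting.

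Markers of follicular B cells, the naive cells of lymphoid patches, varied widely, with negative values and 0 past the threshold. Their summed level was 245, 6.69, 835 and 69.98 CPM in Control and 174, 232, 146 and 31.7 CPM in Pectin. All 14 had a negative value, and the median of -0.997 turned to 0.44 without Control 3. Ighm, the IgM heavy chain, was at 5.42 to 246 CPM in Control and 13.5 to 82.4 CPM in Pectin (-0.55 ± 0.92, adjusted p = 0.792). Pectin 4, with the fewest follicular B cell transcripts of the Pectin libraries, had the most Igha and Igkc. In Control, Igkc ranked as these transcripts did, highest in Control 3, then Control 1, Control 4 and Control 2. The part of this tissue variation in the IgA values was not tested.

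The mucosal mast cell proteases Mcpt1 and Mcpt2 rose from low levels. Mcpt1 had 0.372, 0.0531, 0.250 and 0.554 CPM in Control and 3.72, 3.25, 1.56 and 6.55 CPM in Pectin (3.60 ± 0.58, adjusted p = 0.00901). Its paralog Mcpt2 had 0.0531 to 0.221 CPM in Control and 0.833 to 1.86 CPM in Pectin (3.01 ± 0.52, adjusted p = 0.0111). Both passed in all 8 omissions, though reads of the 2 related genes may be shared. The mast cell and eosinophil list held 7 tested genes, of which 4 had a positive and 3 a negative value, and only these 2 rose (median 0.94). Kit, the receptor that mast cells share with the pacemaker cells of gut muscle, had 9.54 to 22.3 CPM in Control and 10.1 to 21.1 CPM in Pectin.

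In each of the T cell and myeloid lists 1 gene rose, where 1.03% of all genes rose and 42.2% were positive. All 18 tested T cell and cytotoxic lymphocyte markers had a positive value, with a median of 0.81 that was 0.48 without Control 2 and 1.83 without Control 3. The gene that rose, Gzmb, which encodes the cytotoxic protease granzyme B, had 5.49, 2.07, 6.04 and 5.43 CPM in Control and 18.4, 25.4, 49.4 and 5.89 CPM in Pectin (2.38 ± 0.61, adjusted p = 0.0478). Pectin 4 lay within the Control range, and Gzmb passed in 1 of 8 omissions (without Pectin 4; adjusted p up to 0.134 in the others). The summed T cell markers were 26.98 to 191 CPM in Control and 205, 324, 438 and 61.4 CPM in Pectin 1 to 4. Of 16 myeloid markers 15 were positive (median 0.79) and 1 rose, the integrin Itgam (2.00 to 4.10 CPM in Control, 7.80 to 20.1 CPM in Pectin, adjusted p = 0.04). Il1b, which encodes the inflammatory cytokine interleukin-1β, had 0.319 to 1.10 CPM in Control and 3.39 to 6.51 CPM in Pectin (2.52 ± 0.57, adjusted p = 0.0312). Its list, of NF-kappaB and inflammation genes, had 18 tested, 11 with a positive and 7 with a negative value (median 0.20). Il1b was the 1 gene of that list that rose, and 0 fell. Itgam passed in 1 of 8 omissions (up to 0.0876) and Il1b in 4 (not without Control 1, Control 2, Pectin 2 or Pectin 3, up to 0.0737).

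Of 8 tested epithelial oxidase genes, Duox2 and Duoxa2 rose with pectin. Duox2 encodes the hydrogen peroxide-producing oxidase of the brush border and Duoxa2 the factor that carries it to the membrane; they lie head to head on chromosome 2 with RefSeq start positions 673 bases apart. Duoxa2 had 9.998, 37.1, 32.9 and 19.0 CPM in Control and 171, 194, 755 and 103 CPM in Pectin (3.63 ± 0.70, adjusted p = 0.0191). The exons of Duoxa2 overlap those of Duoxa1 on the other strand. Duox2 had 37.6, 83.5, 84.0 and 77.7 CPM in Control and 217, 210, 544 and 281 CPM in Pectin (2.15 ± 0.45, adjusted p = 0.0266). Pectin 3 had the highest level of both, and the groups did not overlap in either. Without Pectin 3 the adjusted p was 0.0551 for Duoxa2 and above the threshold for Duox2, which also lost its call without Control 1 (up to 0.0732). All 8 oxidase genes had a positive value (0.02 to 3.63, median 1.09), and 6 did not pass.

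Of 21 tested antimicrobial and epithelial defence genes 20 had a positive value, 2 rose and 0 fell, with a median of 1.44. Reg3a, a bactericidal lectin, had 41.8, 25.7, 33.8 and 43.8 CPM in Control and 134, 62.0, 108 and 133 CPM in Pectin (1.59 ± 0.35, adjusted p = 0.0308). Lypd8, which keeps flagellated bacteria off the epithelium, had 675, 370, 660 and 1238 CPM in Control and 2014, 1484, 1341 and 3151 CPM in Pectin (1.44 ± 0.38, adjusted p = 0.0495). Reg3a passed in 2 of 8 omissions and Lypd8 in 1 (up to 0.0741 and 0.123). The most abundant lectin, Reg3b, had 2546, 4032, 10850 and 31340 CPM in Control and 79340, 27660, 45600 and 36510 CPM in Pectin and did not pass (1.96 ± 0.73, adjusted p = 0.157). Its Control libraries were widely spread, with Control 4 inside the Pectin range.

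Several secreted or surface epithelial proteins outside that list rose too. Dmbt1, a scavenger receptor that binds bacteria, had 80.8, 62.1, 190 and 298 CPM in Control and 1016, 440, 744 and 2193 CPM in Pectin (2.80 ± 0.64, adjusted p = 0.0333). Ceacam10, a cell adhesion family member, had 0.372 to 0.720 CPM in Control and 4.22 to 7.30 CPM in Pectin (3.40 ± 0.48, adjusted p = 0.0045). The serine protease Prss27 went from 0.849 to 2.05 CPM to 7.08 to 13.6 CPM (2.81 ± 0.54), and the complement regulator Cfi from 0.186 to 1.05 CPM to 2.01 to 4.88 CPM (2.57 ± 0.46). Plet1, an epithelial surface protein, had 0.499 to 0.886 CPM in Control and 7.22, 2.06, 11.9 and 35.0 CPM in Pectin, the highest being Pectin 4 (4.33 ± 1.07, adjusted p = 0.0462). Ceacam10, Prss27 and Cfi passed in all 8 omissions, Dmbt1 in 2 (up to 0.0793) and Plet1 in 1 (up to 0.0969).

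**Figure D2:**
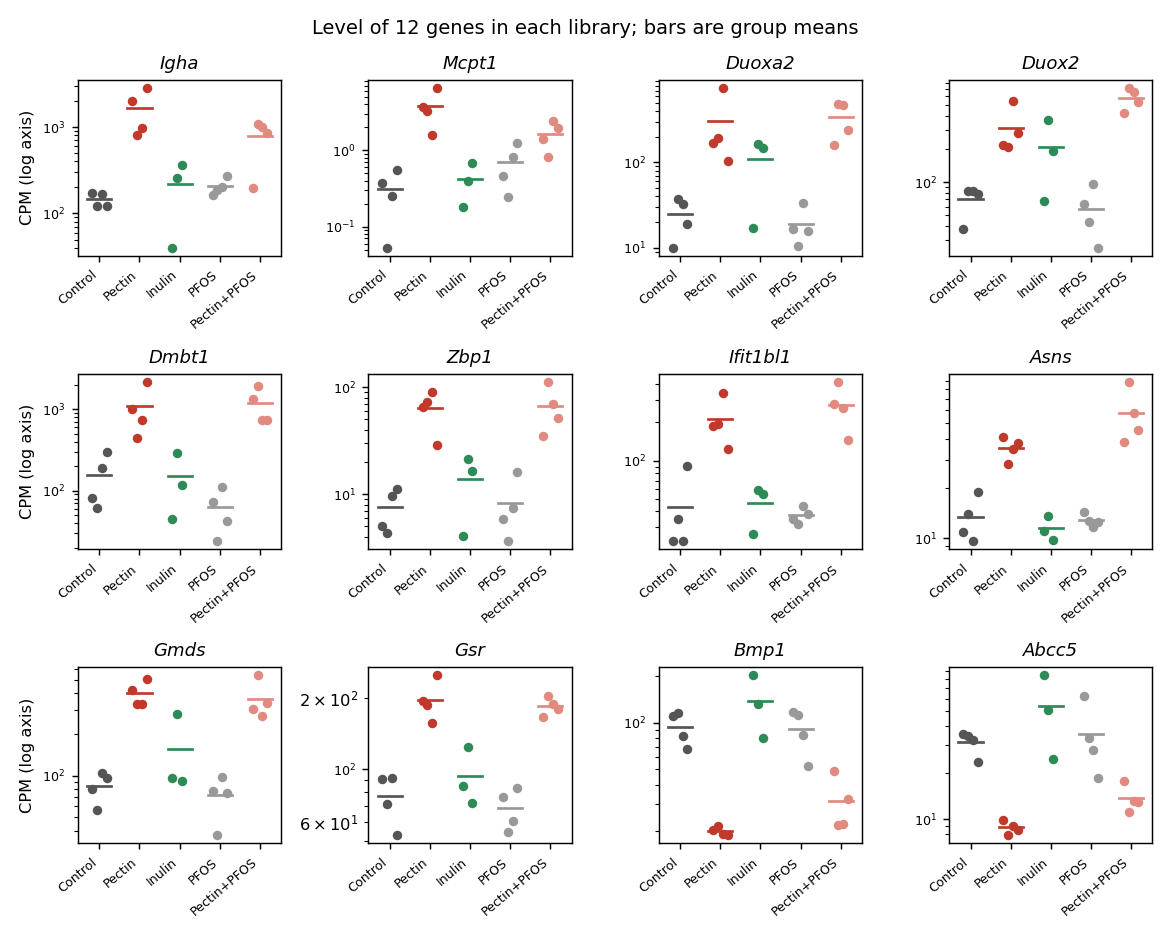
CPM (log axis) of 12 genes in each library of Control, Pectin, Inulin, PFOS and Pectin_PFOS; points are libraries and bars are group means. All 4 Pectin libraries lie above all 4 Control libraries in each panel except those of Bmp1 and Abcc5, where they lie below.

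Zbp1, Ifit1bl1 and Usp18, of the interferon-stimulated list, rose to different levels among the Pectin libraries. Zbp1, a nucleic acid sensor that starts necroptosis, had 5.02, 4.36, 9.64 and 11.1 CPM in Control and 65.4, 72.9, 90.7 and 29.0 CPM in Pectin (3.10 ± 0.54, adjusted p = 0.0128). Ifit1bl1, of the family of interferon-induced proteins that bind foreign RNA, had 23.5, 34.8, 23.3 and 91.2 CPM in Control and 187, 195, 340 and 124 CPM in Pectin (2.29 ± 0.42, adjusted p = 0.0143). Usp18, which removes the ubiquitin-like modifier ISG15, had 2.70 to 4.60 CPM in Control and 6.94, 11.8, 27.1 and 4.87 CPM in Pectin (1.89 ± 0.47, adjusted p = 0.0456). In all 3 genes Pectin 3 was highest and Pectin 4 lowest, and no Pectin library fell within the Control range. Zbp1 and Ifit1bl1 passed in all 8 omissions and Usp18 in 2 (up to 0.147).

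Among 32 tested interferon-stimulated genes 26 had a positive value, 3 rose and 0 fell, with a median of 0.64 that ran from 0.31 without Pectin 3 to 0.80 without Pectin 4. The interferon γ-induced GTPases, which attack the vacuoles of intracellular microbes, had a median of 0.75 and 0 passed. Ifi47 among them had 15.5, 16.3, 22.9 and 29.6 CPM in Control and 70.8, 68.5, 98.6 and 24.7 CPM in Pectin (adjusted p = 0.0607), with Pectin 4 inside the Control range. The list's median was 1.65 without Control 4, the Control library with most of these transcripts (267 CPM summed, against 88.7 to 115 CPM in the others).

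The upstream sequence of Ifit1bl1 is shown because it holds the interferon response element, searched as GAAA and GAAA with any 2 bases between them, on both strands of the 250 bases before the start (RefSeq, GRCm38.p6, chr19:34601969-34602218, minus strand). The capitals mark the match, which reads as the reverse complement and begins 104 bases before the start.
Ifit1bl1: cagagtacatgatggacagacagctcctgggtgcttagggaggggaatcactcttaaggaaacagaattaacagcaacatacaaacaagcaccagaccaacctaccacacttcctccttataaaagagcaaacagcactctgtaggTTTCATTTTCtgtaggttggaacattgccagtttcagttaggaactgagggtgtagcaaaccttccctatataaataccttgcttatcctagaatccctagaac
The element was found in 14 of the 23 interferon-stimulated genes with a promoter (60.9%) and in 4 of the 118 higher genes that had one (3.39%). It was found in 3.39% of the 11180 tested genes with one and in 3.46% of all 27025. A match is a string of letters and not a measured binding site.

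Ripk3 and Mlkl, of the necroptosis pathway and picked out after their values were seen, rose by smaller, more even steps, as did 3 genes of antigen processing. Ripk3, the kinase that Zbp1 engages, had 15.7, 11.7, 13.3 and 12.3 CPM in Control and 24.4, 27.4, 32.3 and 31.8 CPM in Pectin (1.13 ± 0.23, adjusted p = 0.0218). Mlkl, the pore-forming protein at the end of that pathway, had 2.76 to 4.65 CPM in Control and 6.33 to 9.25 CPM in Pectin (1.26 ± 0.26, adjusted p = 0.0218). Of 16 MHC class I and immunoproteasome genes 14 were positive (median 0.62, 0.41 without Pectin 3) and 3 rose: the proteasome activator genes Psme1 (0.98 ± 0.20) and Psme2 (1.00 ± 0.23) and the immunoproteasome subunit Psmb10 (1.16 ± 0.26). Psmb10 had 47.2 to 108 CPM in Control and 156 to 169 CPM in Pectin. Ubd, a ubiquitin-like modifier induced by interferon γ, had 4.23, 1.22, 10.4 and 6.48 CPM in Control and 56.2, 190, 136 and 14.5 CPM in Pectin (4.15 ± 1.00, adjusted p = 0.0426). Ripk3 lost its call without Pectin 3 (0.0579), Mlkl without Control 2 or Pectin 3 (up to 0.0586), and Psme1, Psmb10, Psme2 and Ubd passed in 5, 4, 3 and 1 of 8 omissions (up to 0.0968 for Ubd).

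Asns and 5 aminoacyl-tRNA synthetases rose. Asns, asparagine synthetase, had 10.9, 13.9, 9.54 and 19.1 CPM in Control and 41.0, 28.1, 34.8 and 37.6 CPM in Pectin (1.41 ± 0.26, adjusted p = 0.0147). Nars, which charges tRNA with asparagine, had 125, 119.6, 119 and 121 CPM in Control and 255, 239, 243 and 226 CPM in Pectin (0.99 ± 0.17, adjusted p = 0.00904), with little spread within either group. Of 20 tested aminoacyl-tRNA synthetases 19 had a positive value, 5 rose and 0 fell, with a median of 0.44. The others that rose were Mars (0.76 ± 0.19), Rars (0.75 ± 0.15), Gars (0.68 ± 0.17) and Kars (0.64 ± 0.17, adjusted p = 0.047), which charge methionine, arginine, glycine and lysine tRNAs. Asns and Nars passed in all 8 omissions and Rars in all but that of Pectin 1 (0.0573), while Mars and Gars passed in 0 of 8 (up to 0.0915 and 0.102).

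Other targets of ATF4, the transcription factor of the amino acid and stress response, mostly did not pass. Of 29 tested, 20 were positive, 2 rose and 0 fell, with a median of 0.45. The second that rose, Mthfd2, a mitochondrial one-carbon enzyme, had 2.71 to 4.84 CPM in Control and 7.08 to 12.2 CPM in Pectin (1.23 ± 0.27, adjusted p = 0.0293) and passed in 4 of 8 omissions (not without Control 1, Control 2, Pectin 1 or Pectin 3, up to 0.0747). The stress marker Ddit3 had 12.01 to 20.9 CPM in Control and 6.11 to 12.2 CPM in Pectin (-0.73 ± 0.26, adjusted p = 0.14), and Trib3, which damps ATF4 activity, had 9.998 to 24.97 and 5.53 to 16.4 CPM (-0.45 ± 0.33, adjusted p = 0.492). Ddit3 and Mars share exon sequence on opposite strands, and whether the counting used strand is not given in the sources used here.

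Of 19 tested genes of endoplasmic reticulum chaperones and related factors, which fold secreted proteins, 2 rose and 0 fell; 17 had a positive value, with a median of 0.66. Pdia6, a disulfide isomerase, had 50.8, 32.5, 49.03 and 35.7 CPM in Control and 85.9, 75.9, 59.8 and 114 CPM in Pectin (1.00 ± 0.26, adjusted p = 0.0495). Xbp1, a transcription factor of secretory cells, had 107 to 152 CPM in Control and 207 to 240 CPM in Pectin (0.73 ± 0.18, adjusted p = 0.0423). Hspa5, the main chaperone of that compartment, had 176 to 271 CPM in Control and 419 to 469 CPM in Pectin and missed the threshold (0.87 ± 0.23, adjusted p = 0.0552). The groups did not overlap in any of the 3 genes, yet Pdia6 and Xbp1 passed in 0 of 8 omissions (up to 0.124 and 0.0835).

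Upstream sequences of Asns, Gars and Pdia6 are shown because each holds a response element named for the regulator of its list, in the RefSeq build GRCm38.p6. The ATF4 response element was searched as TGATGNAA and the endoplasmic reticulum stress element as CCAAT and CCACG with any 9 bases between them, on both strands of the 250 bases before the start, and capitals mark the match. The stretches are chr6:7693214-7693243 (minus strand) for Asns, chr6:55037751-55038000 (plus strand) for Gars and chr12:17266339-17266544 (plus strand) for Pdia6. The Asns match lies in an exon of the reference annotation, which places the last 45 bases before the RefSeq start inside that gene, and 30 bases around the match are shown. For Pdia6 the last 44 bases before the RefSeq start, also in an exon, are left out, so that its match begins 54 bases from the end of the stretch.
Asns: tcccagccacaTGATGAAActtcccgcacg
Gars: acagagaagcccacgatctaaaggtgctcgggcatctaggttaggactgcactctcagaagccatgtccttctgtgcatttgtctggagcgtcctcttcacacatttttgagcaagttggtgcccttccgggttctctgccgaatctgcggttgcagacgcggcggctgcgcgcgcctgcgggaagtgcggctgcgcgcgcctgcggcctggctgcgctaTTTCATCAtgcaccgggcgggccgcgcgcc
Pdia6: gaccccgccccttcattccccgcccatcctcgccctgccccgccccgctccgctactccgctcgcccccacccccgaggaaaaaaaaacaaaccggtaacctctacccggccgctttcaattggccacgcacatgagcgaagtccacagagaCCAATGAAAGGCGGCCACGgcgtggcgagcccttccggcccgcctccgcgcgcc
The matches begin 23, 30 and 98 bases before the RefSeq start, and the match of Gars reads as the reverse complement. The ATF4 element was found in 8 of 25 ATF4 target genes with a promoter (32%) and in 3 of 12 synthetase genes (25%). It was found in 7 of the 118 higher genes (5.93%), in 2.33% of the 11180 tested genes with a promoter and in 3.91% of all 27025. The stress element was found in 7 of 16 chaperone genes (43.8%), in 0.152% of the tested genes and in 0.13% of all genes with a promoter.

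Of genes that supply or add sugars for mucus and glycoproteins, 4 that rose are described, of which Gmds, Gfpt1 and Nans were picked out after their values were seen. Gmds, which makes GDP-fucose from GDP-mannose, had 79.8, 56.8, 105 and 95.7 CPM in Control and 420.2, 330.4, 333 and 505 CPM in Pectin (2.24 ± 0.35, adjusted p = 0.00901). Gfpt1, the entry enzyme of hexosamine synthesis, had 164, 184, 112 and 269 CPM in Control and 391, 348, 449 and 369.5 CPM in Pectin (1.10 ± 0.22, adjusted p = 0.02). B3gnt7, which extends N-acetyllactosamine and keratan sulfate chains, had 7.64 to 9.998 CPM in Control and 52.2, 35.7, 93.9 and 60.5 CPM in Pectin (2.78 ± 0.54, adjusted p = 0.0191). No Pectin library overlapped a Control library in these genes. Nans, the sialic acid synthase, rose by 0.78 ± 0.15. Gmds passed in all 8 omissions, and Gfpt1, B3gnt7 and Nans in all but that of Pectin 3 (0.0551, 0.0535 and 0.0514).

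The goblet cell list, which holds the mucus proteins themselves, had 15 of 16 positive values with a median of 0.52. Its 2 rises were Agr2, the isomerase that folds mucins (56.7 to 135 CPM in Control, 161 to 258 CPM in Pectin, 1.04 ± 0.27), and Spdef, a factor of goblet cell maturation (7.33 to 14.6 CPM and 15.4 to 18.4 CPM, 0.84 ± 0.22), each at adjusted p = 0.0488 and in 1 of 8 omissions (up to 0.131 and 0.125). Muc2, the main secreted mucin, had 396 to 1064 CPM in Control and 567 to 947 CPM in Pectin (0.35 ± 0.34, adjusted p = 0.612). The membrane mucin Muc4 had 0.699 to 2.38 CPM in Control and 4.33, 6.51, 10 and 9.43 CPM in Pectin (2.15 ± 0.38, adjusted p = 0.0128) and passed in all 8 omissions. Foxa3, a transcription factor of secretory cells, did so as well, at 6.59 to 9.34 CPM in Control and 13.2 to 18.5 CPM in Pectin (0.91 ± 0.18, adjusted p = 0.0191). The exons of Muc4 overlap those of Muc20 on the other strand.

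Of 26 tested glutathione and NRF2 genes, 3 rose (Gsr, Gpx2 and Gpx1) and 0 fell, with 12 positive values. Their median of -0.02 changed sign with single libraries left out (-0.08 without Control 4, 0.12 without Control 1). Gsr, which regenerates reduced glutathione, had 91.2, 71.3, 92.0 and 52.8 CPM in Control and 194, 186, 156 and 248 CPM in Pectin (1.35 ± 0.23, adjusted p = 0.00904). Gpx2, the epithelial glutathione peroxidase, had 135, 133, 329 and 97.9 CPM in Control and 799, 553.5, 730.5 and 684 CPM in Pectin (1.99 ± 0.45, adjusted p = 0.0319). Gpx1 rose by 1.05 ± 0.25, and so did Prdx6, a peroxiredoxin outside the list picked after its values were seen, by 1.58 ± 0.27. Gclm, a subunit of the glutathione-synthesising ligase, had 101 to 169 CPM in Control and 34.1 to 81.8 CPM in Pectin (-0.99 ± 0.37, adjusted p = 0.156), and Nqo1, an NRF2 target, had 4.71 to 14.5 and 8.44 to 13.9 CPM (0.16 ± 0.28, adjusted p = 0.802). Gsr and Prdx6 passed in all 8 omissions, Gpx2 in 3 and Gpx1 in 1 (up to 0.0762 and 0.0862).

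Ppa1, the pyrophosphatase that clears the by-product of biosynthesis, was picked after its values were seen and passed in all 8 omissions, with 31.7, 24.1, 26.8 and 23.4 CPM in Control and 64.3, 90.1, 74.95 and 100.2 CPM in Pectin (1.64 ± 0.25, adjusted p = 0.00594). Bhmt, which remethylates homocysteine with betaine, had 0.512, 0.372, 0.649 and 3.65 CPM in Control and 19.5, 16.8, 14.5 and 12.6 CPM in Pectin (3.62 ± 0.80, adjusted p = 0.0312), and passed in 2 of 8 omissions (up to 0.0759). All 29 nuclear genes of oxidative phosphorylation had a positive value, with a median of 0.37, but 0 passed. Atp5a1, the ATP synthase α subunit, had 469 to 645 CPM in Control and 827 to 1009 CPM in Pectin (0.62 ± 0.16, adjusted p = 0.0502). The mitochondrially encoded genes had 1 positive value of 13 and a median of -0.48, which was 0.06 without Control 4, the library with the high mitochondrial share.

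Of 11 tested genes listed under the sensing and transport of short-chain fatty acids, the products of pectin fermentation, 2 rose and 0 fell. Values ran from -0.77 to 2.29, 6 of them positive and 5 negative, with a median of 0.13 that was 0.29 without Control 4. Slc9a3, a sodium-proton exchanger, had 1.35 to 2.60 CPM in Control and 3.00, 6.36, 23.95 and 6.46 CPM in Pectin (2.29 ± 0.53, adjusted p = 0.0335), the highest being Pectin 3. Slc16a3, a monocarboxylate transporter, had 10.97, 14.1, 24.2 and 10.2 CPM in Control and 29.97, 35.1, 101 and 14.6 CPM in Pectin (1.605 ± 0.403, adjusted p = 0.0462), and Pectin 4 overlapped Control. Slc9a3 passed in 3 and Slc16a3 in 2 of 8 omissions (up to 0.108 and 0.156). Of 6 ketone body genes all were positive (median 0.37) and Bdh1, which interconverts ketone bodies, rose by 0.70 ± 0.17 (2 of 8 omissions, up to 0.0936).

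**Figure D3:**
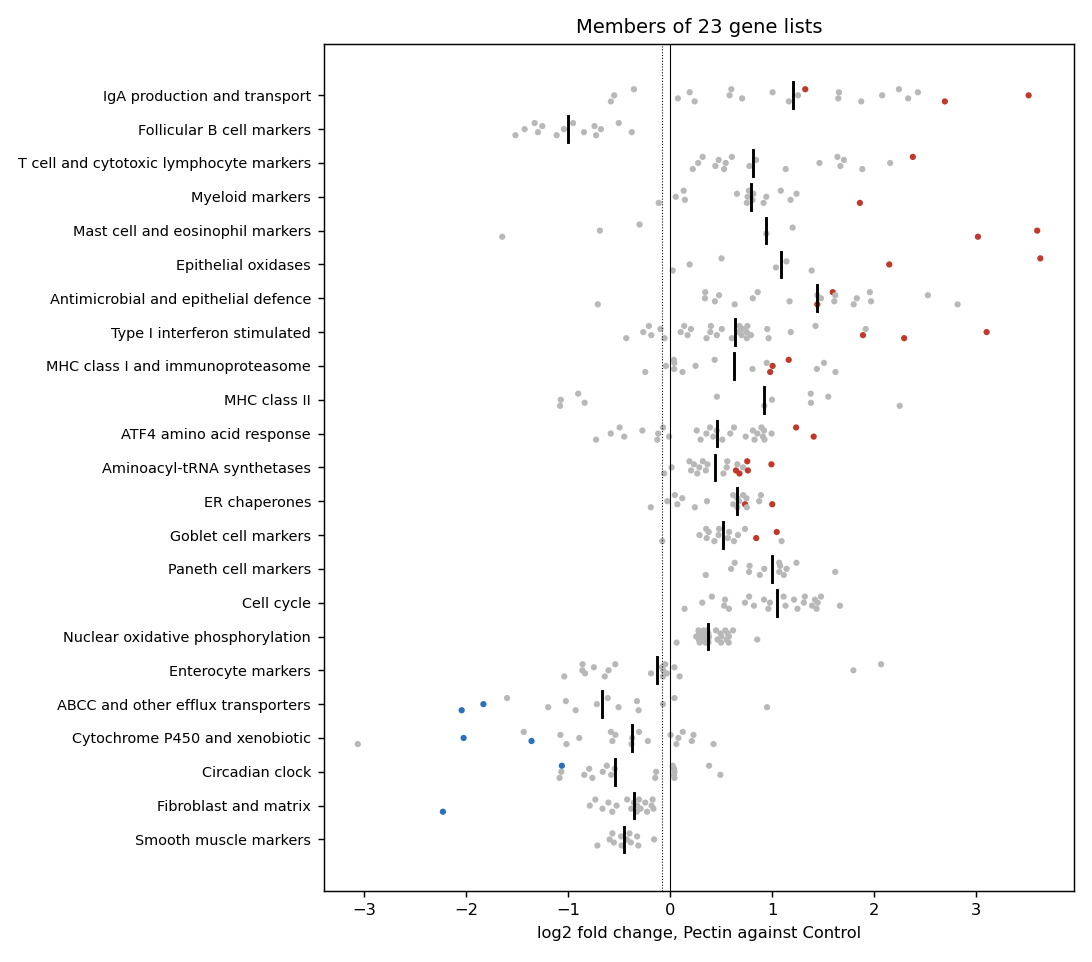
Log2 fold change of Pectin over Control for each tested gene of 23 gene lists (one row a list, horizontal axis in log2 units). Coloured points passed the threshold, black ticks are list medians and the dotted line is the median of all genes tested, -0.08; the IgA, antimicrobial and Paneth lists have medians of 1.21, 1.44 and 0.99, and the lists of efflux transporters and fibroblast genes lie left of the line.

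Bmp1 and the efflux transporters Abcc5 and Abcc6 fell with pectin. Bmp1, the protease that trims procollagens, had 110.3, 115, 82.0 and 67.3 CPM in Control and 20.4, 21.5, 19.1 and 18.9 CPM in Pectin (-2.23 ± 0.33, adjusted p = 0.00594). Abcc5, an exporter of cyclic nucleotides and organic anions, had 35.7, 34.6, 32.4 and 23.5 CPM in Control and 9.93, 7.89, 9.11 and 8.54 CPM in Pectin (-1.83 ± 0.34, adjusted p = 0.0172). Its relative Abcc6 had 27.2, 10.04, 11.6 and 19.3 CPM in Control and 2.94, 4.02, 2.11 and 7.35 CPM in Pectin (-2.04 ± 0.37, adjusted p = 0.0141). The 3 genes did not overlap between the groups and passed in all 8 omissions. Of 14 tested efflux transporters 12 were negative, 2 fell and 0 rose, with a median of -0.67. Of all 15763 genes 9117 were negative, 0.958% fell and 1.03% rose. Abcb1a, the P-glycoprotein pump of the enterocyte surface, had 787, 842, 607 and 439 CPM in Control and 226, 132, 343 and 182 CPM in Pectin without passing (-1.599 ± 0.46, adjusted p = 0.0708).

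Cubn, Cyp2d26, Cyp27a1 and Esr1 fell as well. Cubn, the ileal receptor for the vitamin B12 carrier, had 589, 406, 737 and 359 CPM in Control and 239, 166, 192 and 169 CPM in Pectin (-1.45 ± 0.28, adjusted p = 0.0191). Cyp2d26, a cytochrome P450, had 154, 144, 173 and 42.7 CPM in Control and 27.03, 41.8, 30 and 27.5 CPM in Pectin (-2.02 ± 0.40, adjusted p = 0.0191), with Control 4 just above the highest Pectin library. Cyp27a1, the sterol 27-hydroxylase of bile acid synthesis, had 50.4 to 68.5 CPM in Control and 20.3 to 24.1 CPM in Pectin (-1.36 ± 0.34, adjusted p = 0.0462). Esr1, the estrogen receptor α, fell from 3.05 to 4.82 CPM to 1.00 to 1.39 CPM (-1.82 ± 0.38, adjusted p = 0.0244). Of 21 cytochrome P450 and xenobiotic genes 7 were positive, 2 fell and 0 rose (median -0.38). Of 8 tested ileum markers 4 were positive and 4 negative, 1 (Cubn) fell and 0 rose (median -0.002). Cubn lost its call without Control 1, Pectin 2 or Pectin 3 (up to 0.0514), Cyp2d26 without Pectin 1 or Pectin 3 (up to 0.0551), Esr1 without Pectin 2 or Pectin 3 (up to 0.0692), and Cyp27a1 in 7 of 8 omissions (up to 0.124) and under the GC correction (0.0616).

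The matrix protein gene Vwa1 had 105, 74.8, 89.8 and 47.0 CPM in Control and 20.7, 26.5, 11.1 and 17.3 CPM in Pectin (-2.07 ± 0.39, adjusted p = 0.0191; 0.0537 without Pectin 3), and its exons overlap those of an antisense gene. Prkag3, a regulatory subunit of the energy sensor AMPK, had 1.35 to 4.00 CPM in Control and 0.278 to 0.445 CPM in Pectin (-2.72 ± 0.62, adjusted p = 0.0328), passing in 3 of 8 omissions (up to 0.0874). Cry2, a repressor of the circadian clock, had 20.5 to 33.6 CPM in Control and 12.6 to 14.7 CPM in Pectin (-1.06 ± 0.27, adjusted p = 0.0462). It was the 1 clock gene of 19 that passed, where 1.99% of all genes did. Cry2 passed in 1 of 8 omissions (up to 0.142) and not under the GC correction (0.0635). The median of the clock list was -0.54 (-0.29 without Pectin 4). The chromatin regulators Chd3 and Kmt2b, picked after their values were seen, fell, Chd3 from 230 to 306 CPM to 107 to 120.2 CPM (-1.23 ± 0.29) and Kmt2b from 44.7 to 76.5 CPM to 28.97 to 37.96 CPM (-0.78 ± 0.20). Both lost their call under the GC correction (adjusted p 0.0554 and 0.082), and passed in 2 and 1 of 8 omissions (up to 0.0985 and 0.187).

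The lower genes differed from the higher genes in base composition. The median GC content of the longest annotated transcript was 55.9% among 149 lower genes, 49.4% among 161 higher genes and 49.8% among 15705 tested genes with a transcript. Of the lower genes 60.4%, and of the higher genes 15.5%, lay above 54.4%, the upper quartile of all genes. The median transcript length was 3696 bases in the lower and 2109 bases in the higher genes, against 3198 bases over all genes. Across libraries, the mean log2 level of the 10% of genes richest in GC minus that of the 10% poorest in GC, relative to all libraries, was -0.822 to 0.304 in Control and -0.850 to 0.177 in Pectin (means -0.0778 and -0.387; exact permutation test, two-sided p = 0.343, n = 4 and 4, smallest possible p 0.0286). The part of GC content and length in the lower genes was not tested beyond that correction, under which Bmp1, Abcc5 and Abcc6 passed at adjusted p = 0.00636, 0.0144 and 0.00982. Exons of 70 lower and 45 higher genes overlap those of another gene. The higher genes include Plet1, Duoxa2, Bhmt, B3gnt7 and Il1b, each overlapped by a gene on the other strand.

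**Figure D4:**
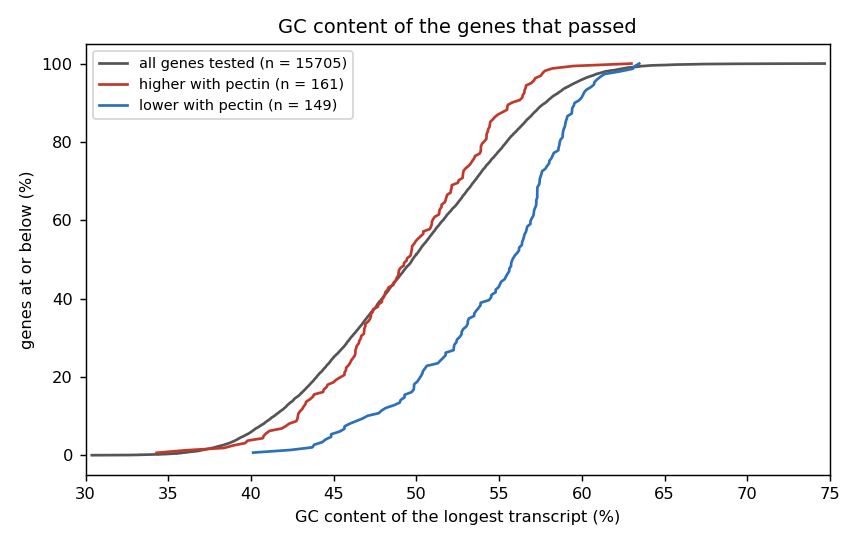
Cumulative share of genes (vertical axis, percent) by GC content of the longest transcript (horizontal axis, percent) for the higher, the lower and all tested genes. The curve of the 149 lower genes with a transcript lies to the right, with a median of 55.9% against 49.4% for the 161 higher genes.

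Epithelial lineages were compared through marker lists, whose members were chosen with earlier results of these data known. All 24 cell cycle genes had a positive value with a median of 1.04 and 0 passed. Top2a, the topoisomerase of dividing cells, had 14.6, 5.68, 7.24 and 10.5 CPM in Control and 30.1, 27.7, 28.8 and 33.7 CPM in Pectin (1.66 ± 0.45, adjusted p = 0.0584). All 14 Paneth cell markers, the antimicrobial products of crypt-base cells, were positive with a median of 0.99 and 0 passed. Lyz1, Paneth cell lysozyme, had 922, 1015, 524 and 1851 CPM in Control and 3600, 1963, 1854 and 2084 CPM in Pectin (1.14 ± 0.37, adjusted p = 0.104). The near-identical α-defensin genes of that list may share reads. Cck, the gene of the satiety hormone cholecystokinin, had 0.956 to 1.58 CPM in Control and 3.44, 4.26, 3.72 and 4.29 CPM in Pectin (1.75 ± 0.31, adjusted p = 0.0128). It passed in all 8 omissions and was the 1 of 22 enteroendocrine genes that rose (median 0.58, 0.30 without Pectin 3).

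Enterocyte markers had 4 positive values of 18, a median of -0.13 that was 0.07 without Pectin 4, and 0 passing. Id1, a target of bone morphogenetic protein signalling, had 71.0, 94.4, 47.3 and 82.5 CPM in Control and 213, 208, 235 and 159 CPM in Pectin (1.47 ± 0.24, adjusted p = 0.00901) and passed in all 8 omissions. Its list of 17 had 5 positive values, 1 rise and, through Bmp1, 1 fall (median -0.28, -0.07 without Control 4). All 19 fibroblast and matrix genes were negative and Bmp1 alone fell, where 9117 of all 15763 genes were negative and 0.958% fell. The median of that list was -0.36, which was -0.14 without Control 4 and -0.56 without Control 3. The summed fibroblast level was 731, 1672, 665 and 1756 CPM in Control and 803 to 913 CPM in Pectin. Among the Control libraries, Control 4 (sum 1756 CPM) had the lowest Bmp1, at 67.3 CPM. Control 2 (sum 1672 CPM) had the highest, at 115 CPM. The 12 smooth muscle markers were negative with a median of -0.45, which was 0.06 without Control 2, and 0 passed. Adipocyte markers summed to 61.7, 438, 128 and 1916 CPM in Control and 676, 476, 871 and 53.6 CPM in Pectin. The part of these tissue differences in the results was not tested.

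The 313 genes were read again in the 8 PFOS and Pectin_PFOS libraries, whose own contrast did not choose them, although the filter and the estimate of the spread came from all 22 libraries. All 162 higher genes were positive in Pectin_PFOS against PFOS, and 125 of them passed there (77.2%), where 7.7% of all genes were called higher and 48.2% were positive. Of the 151 lower genes 132 were negative and 40 passed (26.5%), where 8.33% of all genes were called lower and 51.8% were negative. These 125 and 40 genes were 10.3% and 3.05% of the genes called higher and lower with PFOS. The median log2 fold change was 1.20 for the higher genes, against 1.33 without PFOS, and -0.48 for the lower genes, against -1.03. In separate fits, chosen after seeing the data, 34 genes were higher (0.232% of those tested) and 14 lower (0.0954%) from the Pectin and Control libraries alone. Of these, 32 and 14 were tested in a fit of the PFOS and Pectin_PFOS libraries alone, all in the same direction, and 22 and 7 passed, where 9% of all genes were called higher and 10% lower. With all groups in the fit but without Pectin_PFOS 1, the counts were 119 and 32, and 143 of the lower genes were negative. The count of 40 lower genes was 22, 24 or 23 without PFOS 1, 2 or 3 and 24 without Pectin_PFOS 2. With libraries scaled by their totals alone, which shifted the median of all genes with PFOS to -0.41, 78 of the higher and 100 of the lower genes passed, and the genes called in all were 299 higher and 3530 lower in place of 1213 and 1313.

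Zbp1 and Duox2 passed with PFOS as well. Zbp1 had 3.61 to 16.1 CPM in PFOS and 35.3, 113, 69.2 and 51.5 CPM in Pectin_PFOS (3.03 ± 0.54, adjusted p = 0.00235). Duox2 had 25.5 to 96.4 CPM in PFOS and 425, 720, 653 and 535 CPM in Pectin_PFOS (3.35 ± 0.48, adjusted p = 0.00064). Igha had 165 to 274 CPM in PFOS and 199.7, 1081, 1015 and 851 CPM in Pectin_PFOS, where Pectin_PFOS 1 lay in the PFOS range (1.93 ± 0.54, adjusted p = 0.0222). The mast cell proteases did not pass with PFOS (Mcpt1 1.24 ± 0.53, adjusted p = 0.112; Mcpt2 1.16 ± 0.51, 0.118). Cubn (0.37 ± 0.28, adjusted p = 0.377), Cyp2d26 (-0.45 ± 0.38, 0.442), Cry2 (-0.09 ± 0.27, 0.833) and Id1 (0.24 ± 0.23, 0.511) did not pass either.

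These differences between the 2 settings were not themselves past the threshold. The test of the pectin effect with PFOS minus that without it called 0 of 15763 genes in edgeR (1953 at an unadjusted p under 0.05, 12.4%). DESeq2's Wald test called 135, of which 132 had a positive difference. A positive difference can be a larger rise or a smaller fall with PFOS. Without Control 4 edgeR called 4 genes and without Pectin_PFOS 2 it called 2.

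**Figure D5:**
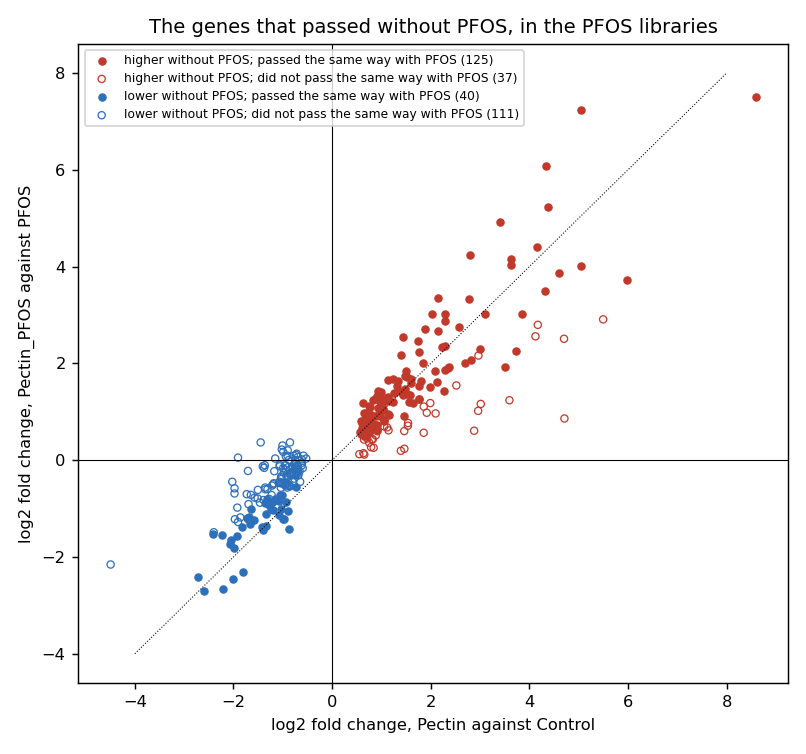
Log2 fold change of Pectin_PFOS over PFOS (vertical axis) against that of Pectin over Control (horizontal axis) for the 313 genes called in the latter; filled points also passed with PFOS, 125 of 162 higher and 40 of 151 lower genes. All higher genes lie above 0, and 19 of the lower genes do too.

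Against Inulin, the other fermentable fibre, the same Pectin libraries had 964 higher and 1789 lower genes (17.5% of those tested, 6.12% higher and 11.3% lower). That count was 357 without Inulin 1, and both comparisons share the Pectin libraries. Igha had 40.3, 255 and 366 CPM in Inulin 1 to 3, below all Pectin libraries (2.92 ± 0.63, adjusted p = 0.00585). Duox2 had 67.4, 369 and 192 CPM in Inulin, of which 1 library lay within the Pectin range (0.58 ± 0.48, adjusted p = 0.395). Id1 had 195, 233 and 165 CPM (0.04 ± 0.25, adjusted p = 0.92), all within the Pectin range of 159 to 235 CPM. Bmp1 had 201, 131 and 80.01 CPM in Inulin (-2.78 ± 0.35, adjusted p = 0.000759), and Abcc5 had 84.7, 51.0 and 24.6 CPM (-2.59 ± 0.37, adjusted p = 0.0012). The 14 Paneth cell markers were all higher with pectin than with inulin, with a median of 2.42 against 0.04 over all genes. Without Inulin 1 the median was 2.30 and 5 of the 14 passed.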

How the data were processed

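The authors deposited one table of expected counts per gene (estimated counts, not scaled) and one of TPM (relative transcript abundance scaled for length) for 22 stranded libraries. HISAT and Bowtie2 are named in the submitters' processing notes without version, and GRCm39 as the build, whereas the gene coordinates of the files match GRCm38. Which tool counted, and whether it used strand, is not given in the sources used here. Expected counts were rounded, and 15763 of 46603 genes passed edgeR's filter on low counts. edgeR 4.0.16 (R 4.3.3) with TMM scaling and a robust quasi-likelihood F test was fitted with one mean per group over all 22 libraries (biological coefficient of variation 31.9%), Benjamini-Hochberg adjusted over all genes. Levels are CPM after TMM scaling; the SE was taken as the size of the log2 fold change over the root of its F value. Alternatives used DESeq2 1.42.0 and limma 3.58.1 on log2(TPM + 0.1) or log2(TPM + 1). The test was checked on simulated counts.

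Genes were named by rule: 15 in each direction by fold change among those past adjusted p 0.05 with a mean of at least 1 CPM and groups that did not overlap, and up to 4 per list that passed, or 2 where 0 passed. The members of the lists and the comparison were chosen with earlier results of these data known. Named after their values were seen were Ighv7-1, Kars, Pigr, Jchain, Ighm, Kit, Reg3b, Ripk3, Mlkl, Hspa5, Ddit3, Trib3, Gmds, Gfpt1, Nans, Muc2, Muc4, Foxa3, Prdx6, Gclm, Nqo1, Ppa1, Abcb1a, Chd3 and Kmt2b. Some genes are not reported here. Nothing in the labels says that replicates came from separate animals, so p-values measure only the spread between these samples. Totals of 17613322 to 20166477 counts a library limit precision for genes near 1 CPM; no UMIs are mentioned. No 2 libraries agreed within sampling noise. Promoters are from RefSeq (GRCm38.p6), and 99 of the 139 named genes matched one.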

Additional observations from a re-analysis of the deposited data

Results flagged for a closer look

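Among 186 groups of 4 values examined (Control or Pectin, for the genes described and for 4 library measures), 16 held a value farther from its nearest neighbour than Dixon's 95% limit allows; chance alone gives about 5% of groups, or 1 in 20. In Control 4, Bhmt stood apart at 3.65 CPM, Ifit1bl1 at 91.2 CPM and Jchain at 807 CPM, each high. In Control 1 Duox2 was low at 37.6 CPM and Spdef high at 14.6 CPM. In Control 2 Foxa3 was low at 6.59 CPM, Gzmb low at 2.07 CPM, and the number of genes with at least 10 counts low at 14346. In Control 3 the glutathione peroxidases Gpx1 and Gpx2 were both high, at 149 and 329 CPM. Among Pectin libraries, Pectin 3 was high for Duoxa2 at 755 CPM and Slc9a3 at 23.95 CPM and low for Muc2 at 567 CPM. Pectin 4 was low for Gclm at 34.1 CPM and high for Itgam at 20.1 CPM, and Pectin 1 was high for Lyz1 at 3600 CPM.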

How the results depend on the processing

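For Pectin against Control, 313 genes passed in the model of all libraries. The number was 126 with library totals alone, 857 with DESeq2, 167 without a low-count filter and 48 with the Pectin and Control libraries only. limma on TPM called 86 (pseudocount 0.1), 87 (pseudocount 1) and 33 (0.1, no filter). Leaving out 1 library gave 51 to 530, and leaving out Control 4 and Pectin 4 together, chosen after seeing the data, gave 722, of which 220 were among the 313. RLE scaling (264), a fit without robust estimation (319), scaling without mitochondrial genes (311) and a GC correction chosen after seeing the data (332, of which 236 among the 313) stayed within 1.5 times the count. The split of higher and lower genes with limma was 23 and 63, 26 and 61, and 16 and 17. The deviations of same-numbered Pectin and Control libraries from their group means correlated at -0.26, -0.06, -0.03 and -0.16. No Control library correlated best with the Pectin library of its own number. With 4 libraries a group, these values cannot decide whether a shared number marks anything else in common. The replicate block gave 306 genes, 248 of them among the 313, and with the 8 libraries alone the block gave 32. Pectin against Inulin called 2753 genes, with 357 to 3610 when 1 library was left out and 2214 under the replicate block. Pectin_PFOS against PFOS called 2526, with 1265 to 2478 when 1 library was left out, 2985 under the block and 3829 with library totals alone. The difference by exposure called 0 genes in edgeR, 0 under the block, 0 to 4 when 1 library was left out and 135 in DESeq2. The mitochondrial share of counts was 1.99 points lower with pectin (-1.99; exact permutation test, two-sided p = 0.629) and between -3.38 and 0.343 when 1 library was left out. Of the 93 named genes that passed (65 by the rule and 28 picked after their values were seen), 6 (Mcpt1, Igha, Ceacam10, Zbp1, Bmp1 and Gmds) passed in every setting tried and 0 changed sign. Library totals alone lost 47 of these calls, and leaving out Pectin 3 lost 67, the most of any single omission. The cause of these changes was not tested.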
